A study of Mus musculus with 11 samples.

Results

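The genes described here encode the proteasome, the protease complex that degrades ubiquitin-tagged proteins. They are all genes whose symbol on the array starts with Psm, a letter from a to g and a digit. Their probe also had to have a detection p under 0.05 in at least 5 of the 10 mice. The family itself was chosen with earlier results of these data known. Of 45 such symbols, 43 passed, among 9302 genes with a detected probe. The 2 that did not pass were Psma1 and Psma6, both of the outer ring of the core particle, so the alpha ring is described from 5 of its genes. Of the 43, 41 were detected in all 10 mice, Psmc6 and Psmd2 being the exceptions. Psmc3ip and Psme3ip1 match the rule but encode proteins that bind a proteasome subunit or activator, and they are set apart below, which leaves 41 genes of the proteasome and its assembly.

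Adrenal RNA came from 5 mINDY-KO mice, which lack the citrate transporter encoded by Slc13a5, and from 5 WT littermates, and it was hybridized to single-colour Illumina bead arrays. The mINDY-KO mice were homozygous for the deletion allele SLC13A5tm1.2Helf, made with Hprt1-Cre mice (129S1-Hprttm1(Cre)Mnn), so that every tissue carries the deletion, and they came from heterozygous parents after more than 10 backcrosses to C57B/6J. Both groups were males of 12 to 16 weeks on standard chow, and they were set against each other to find which adrenal transcripts differ without the transporter. WT replicate 1 was run on 2 arrays, which the labels mark as a technical repeat; they correlated with r = 0.996 over the detected probes and were averaged and counted once. Whole adrenals hold steroid-producing cortex, catecholamine-producing medulla, vessels and leukocytes, so fewer cells of a type and less RNA per cell cannot be told apart.

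The proteasome consists of a barrel, the 20S core particle, and of regulators that cap its ends. The core is built of outer rings of alpha subunits, which gate the entrance, and inner rings of beta subunits, of which Psmb5, Psmb6 and Psmb7 carry the cutting sites. The 19S cap recognizes ubiquitin chains, removes them and unfolds the substrate with a ring of ATPases (Psmc), held in place by non-ATPase subunits (Psmd). Under interferon-γ the cutting subunits are replaced by Psmb8, Psmb9 and Psmb10, which gives the immunoproteasome, and the activators of the Psme family can take the place of the 19S cap.

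The median signal of the arrays lay between 122 and 238 for mINDY-KO mice and between 150 and 202 for WT mice, and mINDY-KO replicates 3 and 4 had the lowest of all, 127 and 122. Probes detected per array numbered 13310 to 13507 in mINDY-KO mice and 13260 to 13538 in WT mice. The probe of Slc13a5 itself gave no signal over background on the 11 arrays, so it does not check the genotype labels. Defining markers of the gland were detected, such as Star and Cyp11a1 of the cortex and Th and Dbh of the medulla. Levels are given as log2 units above the mean of the array after the spread of all arrays was made equal, and differences are mINDY-KO minus WT on that scale. Probes bind with different strength, so that the level of a probe is compared between mice. Across probes, levels serve only to order probes or genes by brightness and to sum the markers of a cell type. The brightest probes weigh most in such sums.

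Most proteasome genes had a slightly higher mean in mINDY-KO than in WT adrenals, by differences of which none passed the test over all genes. The mean was higher for 35 of 43 genes, or 81.4%, and lower for 8, whereas it was higher for 43.6% and lower for 56.4% of all 9302 genes. The share of all genes with a higher mean varied with brightness. It was 71.0% at a level of at least 4, where 12 of the 43 lay, and 41.8% under it. The median difference was 0.092 over the 43 genes, against -0.019 over all genes. At an adjusted p under 0.05 (limma, Benjamini-Hochberg over all detected probes), 0 of 43 were higher and 0 were lower, where 0.0108% of all genes were called in each direction. At an unadjusted p under 0.05, 5 were higher and 0 were lower, against 4.33% and 7.01% of all genes. The count of 5 became 3 when mINDY-KO replicate 4 was left out, beside 4.87% of all genes. It became 8 when mINDY-KO replicate 1 was left out, beside 4.42% of all genes. The thresholds of the study's methods, a Z ratio over 1.5 with a p under 0.05 and a false discovery rate under 0.3, were passed by 0 of 43 genes, beside 0.86% of all genes. That p was under 0.05 before adjustment for 5 genes, for which no share of all genes is given. They were Psmb7, Psmd10, Psmd8 and Psma5, which were higher, and Psme3ip1, which was lower. Psmb1 was not among them. The 95% interval of the difference lay between -0.5 and 0.5 for 42 of 43 genes, Psmb7 being the exception. The limma p-values set each difference against the spread between mice within the groups. For this, the variance of each gene was drawn toward a value common to all detected probes.

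The 5 genes with an unadjusted p under 0.05 in limma were Psmb7, Psmd10, Psmd8, Psma5 and Psmb1. They belong to the inner ring, the outer ring and, by symbol, the cap. By role, the mean was higher for 11 of 12 genes of the 20S core (median 0.15) and for 15 of 19 of the 19S cap (median 0.049). The cap is counted here by symbol and includes Psmd10, Psmd5 and Psmd9, which are assembly chaperones of its ATPase ring. The median of the core was 0.096 without mINDY-KO replicate 3, and that of the cap 0.088 and 0.073 without mINDY-KO replicate 1 or 5. It was higher for 3 of 3 immunoproteasome subunits, 2 of 4 activators and 3 of 3 assembly chaperones of the Psmg family.

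**Figure D1:**
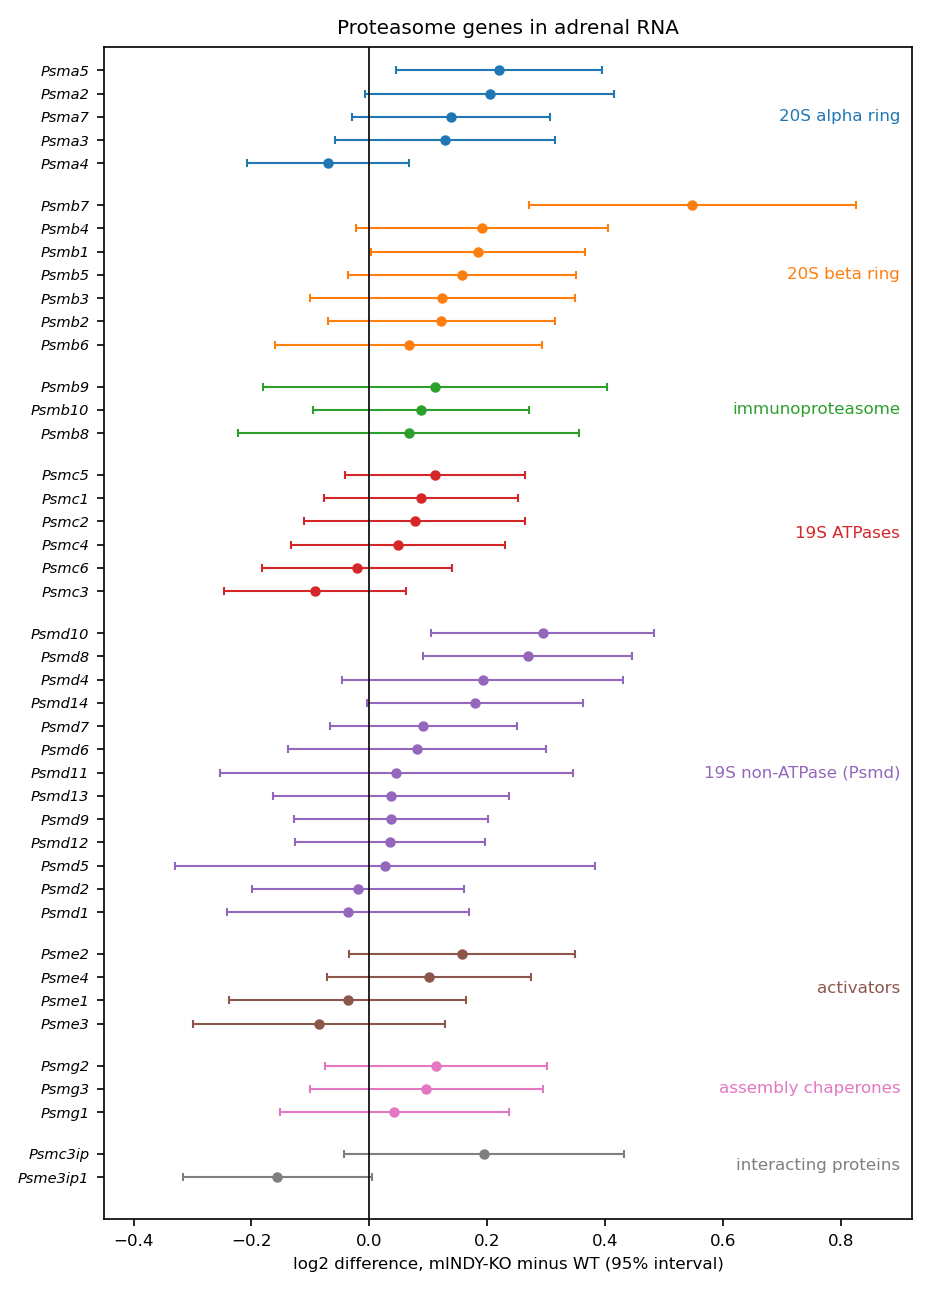
Difference in adrenal RNA level of the 43 genes, mINDY-KO minus WT, on the log2 scale, with 95% intervals from limma (5 mice per group), grouped by role. Points lie right of 0 for 35 of the 43 genes, and the interval of Psmb7 (0.27 to 0.82) is the farthest from 0.

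Proteasome genes are known to be controlled together, with the transcription factors Nfe2l1 and Nfe2l2 acting on antioxidant response elements in many of their promoters. The 250 bases before the start of a gene, from RefSeq on build GRCm38.p6, were therefore searched on both strands for 4 motifs. The search covered 37 promoters of 35 genes, those with an entry among the 41 genes without the interacting proteins. The core of the antioxidant response element, TGACNNNGC, occurred in 5 of 37 (13.5%), those of Psmb5, Psmb6, Psmc6, Psmd12 and Psmd9, against 10.2% of 32851 promoters of all genes. The CCAAT box, CCAAT, occurred in 11 of 37 (29.7%), against 33.8% of all. The interferon-γ activated site, TTCNNNGAA, occurred in 2 of 37 (5.41%), against 7.02% of all. Letters like the interferon-stimulated response element, GAAA and GAAA with any 2 bases between them, occurred in 3 of 37 (8.11%), against 2.98% of all, and matches of different motifs overlapped in 0 of 37. Upstream sequences are shown for the 3 genes with a low unadjusted p that had an entry, Psmd10 (chrX:140956712-140956961, minus strand), Psmd8 (chr7:29180674-29180923, minus strand) and Psma5 (chr3:108256676-108256925, plus strand), and for Psmb5 (chr14:54617996-54618245, minus strand), a cutting subunit whose promoter held the core of the antioxidant response element. They run 5′ to 3′ on the strand of the gene, with motif letters in capitals, CCAAT or its complement ATTGG in Psmd10 and TGACGTCGC in Psmb5.
Psmd10: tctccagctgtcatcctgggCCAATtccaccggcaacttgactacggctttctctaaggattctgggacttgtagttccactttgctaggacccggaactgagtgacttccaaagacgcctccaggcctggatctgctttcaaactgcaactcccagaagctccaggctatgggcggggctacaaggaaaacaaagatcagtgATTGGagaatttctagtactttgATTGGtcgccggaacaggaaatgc
Psmd8: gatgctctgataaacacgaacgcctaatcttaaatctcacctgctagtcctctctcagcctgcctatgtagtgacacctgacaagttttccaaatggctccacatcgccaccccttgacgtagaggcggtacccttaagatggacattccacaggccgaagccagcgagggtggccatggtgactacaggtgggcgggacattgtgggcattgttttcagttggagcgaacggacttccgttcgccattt
Psma5: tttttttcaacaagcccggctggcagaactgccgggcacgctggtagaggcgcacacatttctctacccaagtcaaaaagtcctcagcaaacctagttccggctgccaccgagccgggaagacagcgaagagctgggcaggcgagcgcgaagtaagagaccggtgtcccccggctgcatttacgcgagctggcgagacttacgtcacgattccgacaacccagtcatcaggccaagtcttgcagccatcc
Psmb5: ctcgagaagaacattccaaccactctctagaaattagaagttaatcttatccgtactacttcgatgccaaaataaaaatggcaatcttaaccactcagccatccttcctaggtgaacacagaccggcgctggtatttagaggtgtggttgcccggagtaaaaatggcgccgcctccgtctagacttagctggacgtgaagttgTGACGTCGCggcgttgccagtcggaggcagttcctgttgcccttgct

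Psmd10 held 3 CCAAT boxes, Psmb5 held 1 copy of the response element core, and Psmd8 and Psma5 held none of the 4 motifs in this window. The genes of the 5 promoters with the response element core differed by 0.16 (Psmb5), 0.067 (Psmb6), -0.021 (Psmc6), 0.035 (Psmd12) and 0.037 (Psmd9). Of the 5 genes with an unadjusted p under 0.05 in limma, only Psmd10, Psmd8 and Psma5 had an entry, and none of these held the core. Psmb7 and Psmb1 had no entry, so the search cannot say whether the core goes with the differences.

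In the inner ring of the core, all 7 genes had a higher mean in mINDY-KO mice, with a median difference of 0.16, which was 0.089 without mINDY-KO replicate 3. Psmb7, the subunit with trypsin-like activity, differed most. It measured 3.95, 4.04, 4.11, 4.07 and 4.0 log2 units above the array mean in mINDY-KO replicates 1 to 5, against 3.10, 3.41, 3.85, 3.84 and 3.24 in WT replicates 1 to 5. Every mINDY-KO mouse lay above every WT mouse, the mINDY-KO values were close together, and WT replicates 1 and 5 were the lowest. The means were 4.03 ± 0.063 in mINDY-KO mice and 3.49 ± 0.34 in WT mice (SD, n = 5 each), a difference of 0.55 (standard error 0.13, 95% interval 0.27 to 0.82), which is 1.46-fold. Its unadjusted p was 0.000797 and its adjusted p 0.158 (limma). Groups without overlap and a higher level in mINDY-KO mice were found for 2 of 43 genes, Psmb7 and Psmd10, against 0.753% of all genes.

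The array carries 3 probes for Psmb7, and the one above is the brightest. The next gave 3.93, 3.88, 3.96, 3.94 and 3.93 in mINDY-KO replicates 1 to 5, against 3.58, 3.62, 3.78, 3.8 and 3.37 in WT replicates 1 to 5, a difference of 0.30 (adjusted p = 0.216 from limma). The dimmest gave 2.62, 2.49, 2.46, 2.57 and 2.64 in mINDY-KO replicates 1 to 5, against 2.37, 2.38, 2.30, 2.57 and 2.55 in WT replicates 1 to 5, a difference of 0.12 (adjusted p = 0.602 from limma). With the middle probe the groups again did not overlap, whereas with the dimmest they did, and the size of the difference was smaller with both. The average of the 3 probes differed by 0.32.

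**Figure D2:**
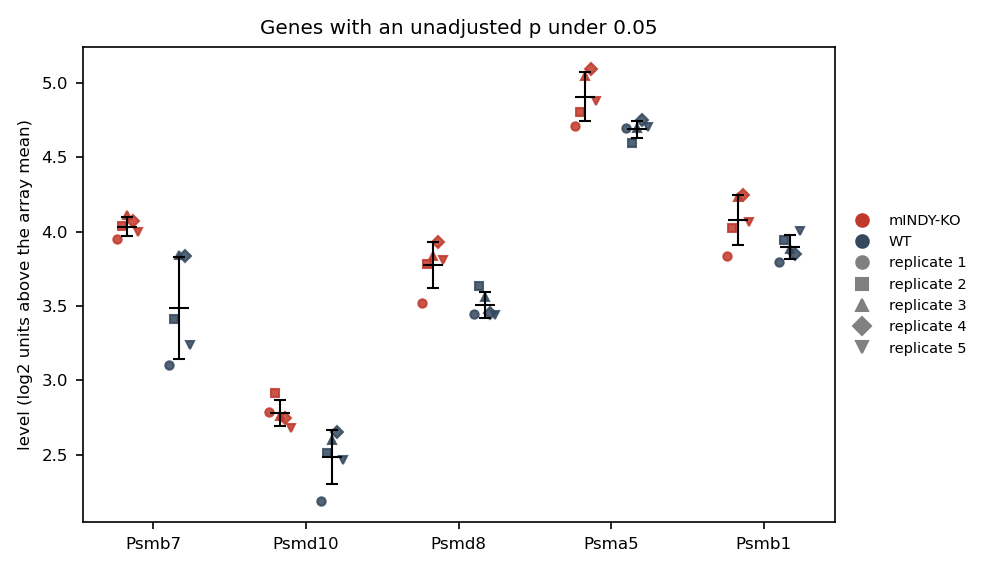
Level of the 5 genes with an unadjusted p under 0.05 in each mouse, in log2 units above the array mean, with mINDY-KO mice left of WT mice. Symbols mark replicates, and bars the mean ± SD (n = 5 each). The groups do not overlap for Psmb7 and Psmd10.

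Psmb1, a non-catalytic subunit of the same ring, measured 3.84, 4.02, 4.24, 4.24 and 4.06 in mINDY-KO replicates 1 to 5, against 3.8, 3.94, 3.89, 3.85 and 4.0 in WT replicates 1 to 5. All mINDY-KO mice but replicate 1 lay above the highest WT mouse, and replicates 3 and 4 were the highest. The difference was 0.18 (standard error 0.085, adjusted p = 0.450 from limma). Psmb4, also non-catalytic, measured 5.28, 5.23, 5.67, 5.75 and 5.50 in mINDY-KO replicates 1 to 5, against 5.42, 5.29, 5.28, 5.29 and 5.20 in WT replicates 1 to 5. mINDY-KO replicates 3, 4 and 5 lay above all WT mice and replicates 1 and 2 within their range. This was a difference of 0.19 (standard error 0.10, adjusted p = 0.514 from limma).

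The other cutting subunits, Psmb5 with chymotrypsin-like and Psmb6 with caspase-like activity, differed less than Psmb7. Psmb5 measured 2.82, 2.68, 3.09, 2.80 and 2.66 in mINDY-KO replicates 1 to 5, against 2.71, 2.73, 2.45, 2.72 and 2.65 in WT replicates 1 to 5, a difference of 0.16 (standard error 0.091, adjusted p = 0.567 from limma). The highest mouse was mINDY-KO replicate 3 and the lowest WT replicate 3, and the groups overlapped. Psmb6 ranged over 4.11 to 4.60 in mINDY-KO mice and 4.08 to 4.45 in WT mice, with a difference of 0.067 (95% interval -0.16 to 0.29). The structural subunits Psmb2 (0.12) and Psmb3 (0.12) had adjusted p of 0.667 and 0.708 (limma), and both ranges overlapped.

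**Figure D3:**
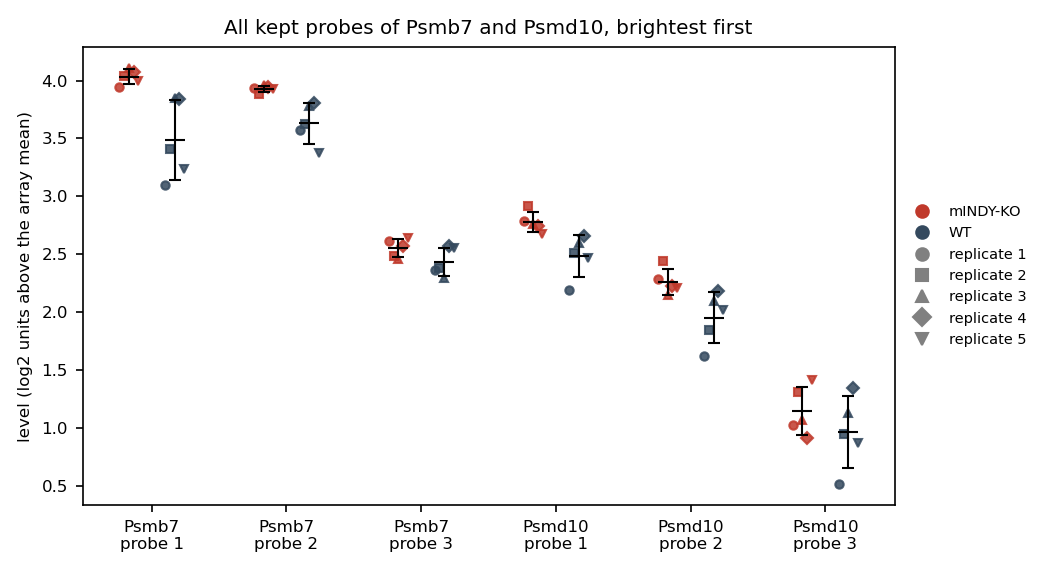
Level of all 3 detected probes of Psmb7 and all 3 of Psmd10 in each mouse, in log2 units above the array mean, ordered by brightness within a gene, with mINDY-KO mice left of WT mice. Bars show the mean ± SD (n = 5 each). The mean is higher in mINDY-KO mice with all 6 probes, by 0.12 to 0.55, and the groups do not overlap with the 2 brighter probes of Psmb7 and the brightest of Psmd10.

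In the outer ring, 4 of the 5 detected genes had a higher mean, with a median difference of 0.14. Psma5, an alpha subunit, measured 4.71, 4.80, 5.05, 5.10 and 4.88 in mINDY-KO replicates 1 to 5, against 4.70, 4.59, 4.70, 4.75 and 4.71 in WT replicates 1 to 5. All mINDY-KO mice but replicate 1 lay above the highest WT mouse, and replicates 3 and 4 were again the highest. The difference was 0.22 (standard error 0.082, 95% interval 0.045 to 0.39, adjusted p = 0.357 from limma). Psma2, another subunit of this ring, measured 5.11, 5.18, 5.44, 5.68 and 5.36 in mINDY-KO replicates 1 to 5, against 5.27, 5.14, 5.06, 5.08 and 5.20 in WT replicates 1 to 5. mINDY-KO replicates 3, 4 and 5 exceeded all WT mice, and replicates 1 and 2 lay among them. Its difference was 0.20 (standard error 0.099, adjusted p = 0.476 from limma). Psma7 (0.14, adjusted p = 0.559) ranged over 3.71 to 3.99 in mINDY-KO mice and 3.63 to 3.86 in WT mice, and Psma3 (0.13, adjusted p = 0.634, both from limma) over 4.67 to 5.0 in mINDY-KO mice and 4.55 to 4.81 in WT mice. Psma4 was the exception in this ring, with 4.25, 4.19, 4.24, 4.31 and 4.32 in mINDY-KO replicates 1 to 5, against 4.42, 4.28, 4.36, 4.26 and 4.33 in WT replicates 1 to 5. None of the mINDY-KO mice lay above the WT mean of Psma4, and its difference was -0.070 (95% interval -0.21 to 0.067, adjusted p = 0.735 from limma).

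Of the 6 ATPases of the cap, 4 had a higher mean, with a median difference of 0.063, and 0 had an unadjusted p under 0.05. That median was 0.020, 0.026, 0.036 and 0.040 without mINDY-KO replicate 4, 5 or 3 or WT replicate 4, and 0.097 and 0.098 without mINDY-KO replicate 1 or 2. With quantile normalization the median was -0.00033 and the count 3 of 6. The count changed because Psmc2 then differed by -0.0021 in place of 0.077. Psmc5 measured 3.21, 3.21, 3.38, 3.38 and 3.26 in mINDY-KO replicates 1 to 5, against 3.27, 3.27, 3.14, 3.09 and 3.13 in WT replicates 1 to 5, a difference of 0.11 (adjusted p = 0.614 from limma). The highest mice were mINDY-KO replicates 3 and 4, and the groups overlapped. Psmc3, which with the other ATPases opens the gate of the core, measured 2.90, 2.62, 2.84, 2.83 and 2.92 in mINDY-KO replicates 1 to 5, against 2.96, 2.84, 2.92, 2.90 and 2.95 in WT replicates 1 to 5. Of the mINDY-KO mice, 1 lay above its WT mean, for a difference of -0.093 (95% interval -0.25 to 0.062, adjusted p = 0.681 from limma). Psmc1 ranged over 3.01 to 3.36 in mINDY-KO mice and 2.98 to 3.12 in WT mice (0.087), and Psmc2 over 4.64 to 5.09 in mINDY-KO mice and 4.64 to 4.86 in WT mice. The remaining ATPases were Psmc4 (0.049) and Psmc6 (-0.021), with adjusted p of 0.876 and 0.95 (limma).

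Of the 13 Psmd genes, 11 had a higher mean, with a median difference of 0.046, and 2 had an unadjusted p under 0.05. Without mINDY-KO replicate 1 the count was 8 of 13 and the median 0.0024, and without mINDY-KO replicate 2 they were 9 of 13 and 0.030. The median was 0.074, 0.099 and 0.087 without mINDY-KO replicate 3, 4 or 5, 0.072 without WT replicate 1, and 0.11 with neqc, a background correction that uses the detection p. The size of this median thus turned on single mice. Psmd10, known as gankyrin, is an assembly chaperone of the ATPase ring that leaves before the particle is finished. It measured 2.79, 2.92, 2.76, 2.75 and 2.68 in mINDY-KO replicates 1 to 5, against 2.19, 2.51, 2.60, 2.66 and 2.47 in WT replicates 1 to 5. Every mINDY-KO mouse lay above every WT mouse, with replicate 2 the highest and WT replicate 1 the lowest. The means were 2.78 ± 0.088 in mINDY-KO mice and 2.48 ± 0.18 in WT mice (SD, n = 5 each), a difference of 0.29 (standard error 0.088, 95% interval 0.10 to 0.48, adjusted p = 0.245 from limma). Its dimmer probes differed by 0.31 (adjusted p = 0.294) and 0.18 (adjusted p = 0.670, both from limma), with overlapping groups. Replicates 3 and 4 of the mINDY-KO mice were not among the highest for Psmd10.

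Psmd8, a structural subunit of the lid of the cap, measured 3.52, 3.78, 3.84, 3.93 and 3.81 in mINDY-KO replicates 1 to 5, against 3.45, 3.64, 3.56, 3.45 and 3.44 in WT replicates 1 to 5. All mINDY-KO mice but replicate 1 lay above the highest WT mouse, replicate 2. The difference was 0.27 (standard error 0.083, 95% interval 0.091 to 0.45, adjusted p = 0.262 from limma). Psmd14, the deubiquitinase that cuts ubiquitin chains off the substrate, measured 1.94, 1.83, 1.63, 1.82 and 1.94 in mINDY-KO replicates 1 to 5, against 1.61, 1.53, 1.58, 1.66 and 1.89 in WT replicates 1 to 5. WT replicate 5 lay among the mINDY-KO mice and mINDY-KO replicate 3 among the WT mice, for a difference of 0.18 (standard error 0.086, adjusted p = 0.468 from limma). Psmd4, a ubiquitin receptor of the cap, measured 4.73, 4.54, 5.01, 5.17 and 4.91 in mINDY-KO replicates 1 to 5, against 4.90, 4.59, 4.51, 4.68 and 4.72 in WT replicates 1 to 5. Replicates 3, 4 and 5 of the mINDY-KO mice exceeded all WT mice, and the difference was 0.19 (standard error 0.11, adjusted p = 0.568 from limma).

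The other Psmd genes differed by -0.036 to 0.092. The scaffolds Psmd1 (-0.036) and Psmd2 (-0.019), to which ubiquitin receptors and shuttle factors bind, had lower means, with adjusted p of 0.929 and 0.962 (limma). The lid subunits Psmd11 (0.046), Psmd12 (0.035), Psmd13 (0.037), Psmd6 (0.080) and Psmd7 (0.092) had adjusted p between 0.693 and 0.938 (limma). The assembly chaperones Psmd5 (0.026) and Psmd9 (0.037), which act on the ATPase ring as Psmd10 does, had adjusted p of 0.975 and 0.903 (limma). Psmd5 had the widest 95% interval of the 43 genes, -0.33 to 0.38, and WT replicate 3 (0.74) lay far above the other mice, which ranged over -0.20 to 0.26 in mINDY-KO mice and up to 0.17 in the remaining WT mice. Psmd11 divided the mINDY-KO mice, of which replicates 3 and 4 (0.77 and 0.69) lay below and replicates 1, 2 and 5 (1.47, 1.44 and 1.30) above all WT mice (1.03 to 1.15). Of the 14 genes with several detected probes, 5 had probes of opposite sign, Psmb10, Psmd11, Psmd6, Psmd7 and Psme1, and none of these probes had an adjusted p under 0.05. Among the Psmd genes of these, the dimmer detected probe differed by -0.15 (Psmd7), -0.085 (Psmd11) and -0.057 (Psmd6).

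The mINDY-KO mice did not contribute alike. Averaged over the 12 genes of the 20S core, the difference from the WT mean was 0.013, 0.066, 0.32, 0.32 and 0.11 in mINDY-KO replicates 1 to 5, against 0.029, 0.027, -0.042, -0.0043 and -0.010 in WT replicates 1 to 5. mINDY-KO replicates 3 and 4 stood far above all other mice, and replicate 1 lay within the WT range. For the 19 genes of the 19S cap it was 0.073, 0.065, 0.059, 0.099 and 0.083 in mINDY-KO replicates 1 to 5, against -0.013, -0.037, 0.020, 0.0068 and 0.023 in WT replicates 1 to 5, so that all mINDY-KO mice lay close together and above the WT mice. Over all 9302 genes the means lay between -0.049 and 0.016 in mINDY-KO mice and between -0.0049 and 0.0040 in WT mice. Replicates 3 and 4 were the 2 highest of the 10 mice for 16 of the 41 genes without the interacting proteins (39.0%), against 5.92% of all genes.

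Replicates 3 and 4 were also the highest mice for other gene families. The 52 detected cytosolic ribosomal proteins averaged 0.35 and 0.44 in mINDY-KO replicates 3 and 4, and -0.14, -0.085 and -0.051 in replicates 1, 2 and 5, against -0.036 to 0.027 in WT mice. The 33 detected genes with Nduf symbols, most of which encode subunits of respiratory complex I, averaged 0.31 and 0.32 in replicates 3 and 4, and -0.069 to -0.030 in the other mINDY-KO mice, against -0.14 to 0.084 in WT mice. With Z normalization these families were thus below the WT mean in replicates 1, 2 and 5, whereas the core and the cap were above it. Quantile normalization, which gives all arrays the same distribution, gave 0.089, 0.14, 0.14, 0.090 and 0.10 for the 20S core in replicates 1 to 5, against -0.020 to 0.032 in WT mice. The 19S cap then ranged over 0.037 to 0.082 in mINDY-KO mice and -0.038 to 0.024 in WT mice, the ribosomal proteins over -0.066 to 0.099 in mINDY-KO mice and -0.088 to 0.047 in WT mice, and complex I over -0.077 to 0.17 in mINDY-KO mice and -0.12 to 0.074 in WT mice. The means of the core and the cap did not overlap between groups on this scale, and those of the other families did.

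With neqc the cap overlapped (0.021 to 0.11 in mINDY-KO mice and -0.054 to 0.050 in WT mice). Without Psmb7, the remaining 11 core genes ranged over -0.028 to 0.30 in mINDY-KO mice and -0.079 to 0.067 in WT mice as Z scores and over 0.051 to 0.11 in mINDY-KO mice and -0.052 to 0.024 in WT mice after quantile normalization. Without Psmb7 the core thus overlapped as Z scores and did not after quantile normalization. Without Psmd10 and Psmd8 the remaining 17 cap genes ranged over 0.030 to 0.070 in mINDY-KO mice and -0.050 to 0.031 in WT mice as Z scores, and the groups overlapped slightly. After quantile normalization these 17 ranged over 0.012 to 0.069 in mINDY-KO mice and -0.052 to 0.033 in WT mice. With neqc they ranged over -0.0075 to 0.085 in mINDY-KO mice and -0.066 to 0.062 in WT mice. The cap without Psmd10 and Psmd8 thus overlapped on each of these scales. Without mINDY-KO replicates 3 and 4, the mean was higher for 28 of 43 genes with a median difference of 0.048, against 50.1% and 0.00046 over all genes. At an unadjusted p under 0.05, 5 were then higher and 0 lower, against 6.06% and 5.28% of all genes. The inner ring was then higher for 4 of 7 genes, the ATPases for 2 of 6 and the Psmd genes for 11 of 13. The counts of the inner ring and the ATPases were thus lower without these mice. Among genes with a level of at least 4, 10 of 12 proteasome genes had a higher mean, beside 71.0% of all 583 such genes, and under that level 25 of 31, beside 41.8% of 8719. After quantile normalization these were 9 of 12, beside 49.6%, and 25 of 31, beside 46.9%. Without mINDY-KO replicates 3 and 4 they were 5 of 12 (median -0.016), beside 29.7%, and 23 of 31, beside 51.5%, so that most bright proteasome genes then had a lower mean. The part of array brightness in the differences was not tested.

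**Figure D4:**
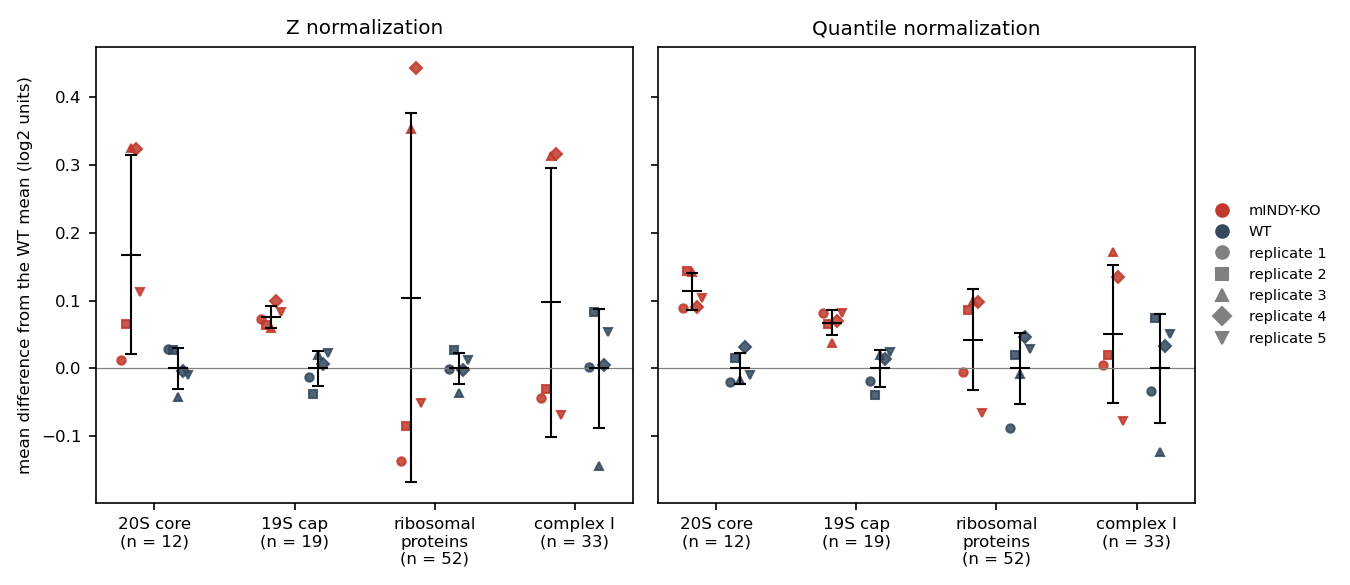
Mean difference from the WT mean over the genes of each family in each mouse, on the log2 scale, with Z normalization (left) and quantile normalization (right), mINDY-KO mice left of WT mice, n giving the number of genes. Bars show the mean ± SD over 5 mice. With Z normalization mINDY-KO replicates 3 and 4 stand at 0.32 and 0.32 for the 20S core, and with quantile normalization the 5 mINDY-KO mice lie between 0.089 and 0.14.

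Markers of the cell types of the gland also varied among the mINDY-KO mice. The 8 detected of 10 cortex markers averaged -0.14, -0.20, 0.16, 0.23 and 0.12 in mINDY-KO replicates 1 to 5, against -0.028 to 0.035 in WT mice, and their summed level ranged over 7.29 to 8.03 log2 units in mINDY-KO mice and 7.54 to 7.76 in WT mice. The 7 detected of 9 medulla markers averaged -0.42, -0.49, -0.028, 0.026 and 0.13 in mINDY-KO replicates 1 to 5, against -0.26 to 0.37 in WT mice, with summed levels of 7.0 to 7.69 in mINDY-KO mice and 7.20 to 7.82 in WT mice. mINDY-KO replicates 3 and 4 thus had the highest cortex markers, and replicates 1 and 2 the lowest markers of both. Of the 8 cortex markers 5 had a higher mean, with 2 higher and 1 lower at an unadjusted p under 0.05, where 4.33% of all genes were higher and 7.01% lower. Of the 7 medulla markers 6 had a lower mean, against 56.4% of all genes, and Ddc, an enzyme of catecholamine synthesis (-0.35), and the granule protein Scg2 (-0.24) were lower at that p. The averages of the medulla markers overlapped between the groups. Of 8 endothelial markers, all detected, 6 had a lower mean and 2, the receptors Tek (-0.17) and Tie1 (-0.21), were lower at that p. Their average was -0.13 to -0.014 in mINDY-KO mice and -0.093 to 0.054 in WT mice, with summed levels of 5.87 to 5.94 in mINDY-KO mice and 5.83 to 6.02 in WT mice. Every mINDY-KO mouse lay below the WT mean of the endothelial markers, and the groups overlapped. The 4 detected of 10 adipocyte markers averaged 0.17, 0.18, 0.19, -0.097 and 0.69 in mINDY-KO replicates 1 to 5, against -0.071 to 0.18 in WT mice, with summed levels of 1.46 to 2.38 in mINDY-KO mice and 1.5 to 1.76 in WT mice. mINDY-KO replicate 5 was the highest, all 4 had a higher mean and 1, Adipoq (0.70), was higher at that p, while Fabp4, Cidec, Retn, Cidea and Ucp1 were not above background. None of the markers of these cell types had an adjusted p under 0.05 (limma). The part of these differences in the levels of proteasome genes was not tested.

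The subunits of the immunoproteasome were all detected, and their groups overlapped. Psmb8, which takes the place of Psmb5, measured 0.43, -0.020, 0.10, -0.15 and -0.15 in mINDY-KO replicates 1 to 5, against -0.45, -0.064, 0.23, -0.055 and 0.22 in WT replicates 1 to 5. mINDY-KO replicate 1 was the highest and WT replicate 1 the lowest, and the difference was 0.067 (95% interval -0.22 to 0.36, adjusted p = 0.898 from limma). Psmb9, which takes the place of Psmb6, measured 2.46, 2.34, 2.20, 2.21 and 1.75 in mINDY-KO replicates 1 to 5, against 1.84, 1.78, 2.19, 2.36 and 2.23 in WT replicates 1 to 5. mINDY-KO replicate 1 was again the highest and replicate 5 the lowest of all mice, for a difference of 0.11 (95% interval -0.18 to 0.40, adjusted p = 0.815 from limma). Psmb10, which takes the place of Psmb7, measured 2.85, 2.85, 3.09, 3.22 and 2.81 in mINDY-KO replicates 1 to 5, against 2.78, 2.89, 2.92, 2.85 and 2.94 in WT replicates 1 to 5. mINDY-KO replicates 3 and 4 lay above all other mice, and the difference was 0.087 (95% interval -0.095 to 0.27, adjusted p = 0.758 from limma). Its other detected probe differed by -0.047. The constitutive subunits that they replace differed by 0.16 (Psmb5), 0.067 (Psmb6) and 0.55 (Psmb7).

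mINDY-KO replicate 1 was the highest mouse for the immunoproteasome and the lowest mINDY-KO mouse for the core. Averaged over its 3 subunits, the difference from the WT mean was 0.27, 0.079, 0.15, 0.11 and -0.17 in mINDY-KO replicates 1 to 5, against -0.25, -0.11, 0.14, 0.072 and 0.15 in WT replicates 1 to 5. Of 23 detected genes of antigen processing and the interferon response, 16 had a higher mean, against 43.6% of all genes, 3 were higher and 0 lower at an unadjusted p under 0.05, against 4.33% and 7.01% of all genes, and 0 passed the adjusted threshold (limma). The 3 were Tap2, a chain of the peptide transporter, with a difference of 0.26 (standard error 0.092, adjusted p = 0.322 from limma), B2m, the light chain of MHC class I, with 0.25 (standard error 0.10, adjusted p = 0.386 from limma), and the interferon-induced ubiquitin-like protein Isg15, with 0.28 (standard error 0.11, adjusted p = 0.391 from limma). The average of the 23 genes was 0.28, 0.068, 0.064, -0.015 and -0.055 in mINDY-KO replicates 1 to 5, against -0.11, -0.16, 0.16, 0.11 and 0.00091 in WT replicates 1 to 5, with mINDY-KO replicate 1 the highest as for Psmb8 and Psmb9. Of 15 detected among 23 markers of leukocytes and macrophages, 14 had a higher mean, beside the same 43.6% of all genes, and 0 an unadjusted p under 0.05 (limma), while Ptprc, Itgam, Cd3e and Cd79a were not above background. The average of the 15 markers was 0.22, 0.29, 0.21, 0.038 and -0.075 in mINDY-KO replicates 1 to 5, against -0.28, -0.030, 0.19, 0.096 and 0.020 in WT replicates 1 to 5, and their summed level 6.58 to 6.96 log2 units in mINDY-KO mice and 6.32 to 6.83 in WT mice. WT replicate 1 was the lowest for the immunoproteasome and for the leukocyte markers, and mINDY-KO replicate 5 the lowest mINDY-KO mouse for both. The part of leukocytes in the levels of these subunits was not tested.

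Among the activators, Psme1 and Psme2 form the interferon-inducible ring that works with the immunoproteasome, Psme3 forms a nuclear ring of its own, and Psme4 is a single large nuclear activator. Psme2 measured 2.06, 1.9, 2.11, 1.91 and 2.08 in mINDY-KO replicates 1 to 5, against 1.61, 1.78, 2.05, 2.01 and 1.82 in WT replicates 1 to 5. All 5 mINDY-KO mice lay above the WT mean and the groups overlapped, with a difference of 0.16 (95% interval -0.035 to 0.35, adjusted p = 0.561 from limma). Its partner Psme1 measured 4.0, 3.99, 4.28, 4.21 and 3.79 in mINDY-KO replicates 1 to 5, against 4.27, 4.07, 3.96, 4.05 and 4.11 in WT replicates 1 to 5, a difference of -0.037 (95% interval -0.24 to 0.16, adjusted p = 0.924 from limma). Its dimmer probe differed by 0.020. Psme3 measured 2.22, 1.80, 2.04, 2.16 and 1.87 in mINDY-KO replicates 1 to 5, against 2.22, 1.99, 1.9, 2.09 and 2.32 in WT replicates 1 to 5, a difference of -0.085 (95% interval -0.30 to 0.13, adjusted p = 0.805 from limma). The groups of Psme1 and Psme3 overlapped, with the highest and the lowest mouse of Psme1 both mINDY-KO mice. Psme4 measured 3.04, 3.06, 2.76, 2.78 and 2.93 in mINDY-KO replicates 1 to 5, against 2.75, 2.69, 2.93, 2.81 and 2.87 in WT replicates 1 to 5, a difference of 0.10 (95% interval -0.071 to 0.27, adjusted p = 0.690 from limma). For Psme4, mINDY-KO replicates 1, 2 and 5 lay above all WT mice, and replicates 3 and 4 among them.

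**Figure D5:**
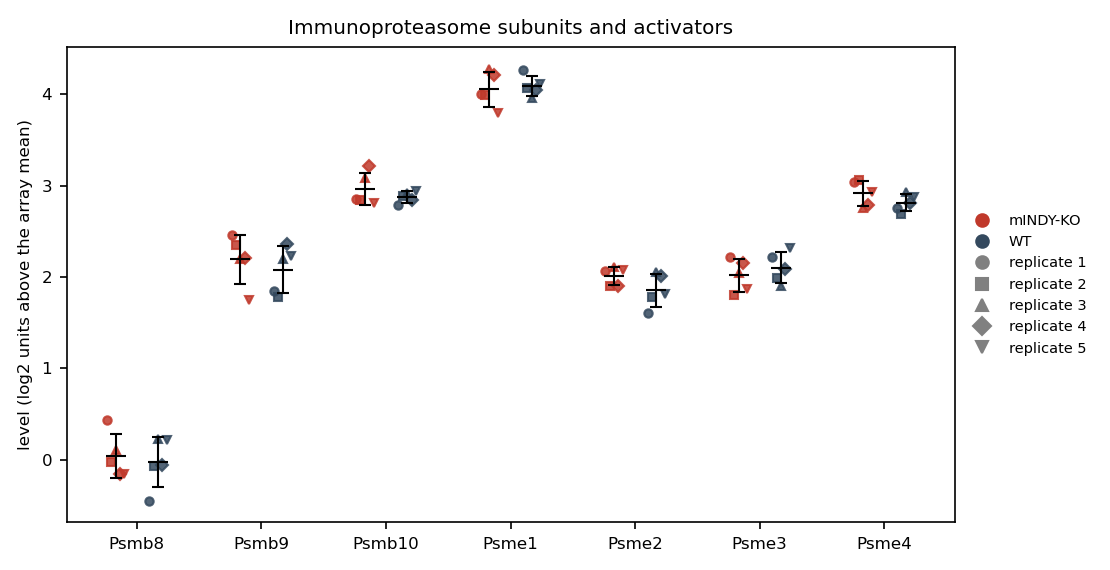
Level of the immunoproteasome subunits and the activators in each mouse, in log2 units above the array mean, mINDY-KO mice left of WT mice. Bars show the mean ± SD (n = 5 each). The groups overlap for all 7 genes, and the differences lie between -0.085 (Psme3) and 0.16 (Psme2).

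The chaperones that assemble the core, Psmg1 with Psmg2 and Psmg3, had higher means by 0.042, 0.11 and 0.096, with adjusted p of 0.906, 0.683 and 0.752 (limma). Psmg1 measured 1.22, 1.5, 1.22, 1.25 and 1.21 in mINDY-KO replicates 1 to 5, against 1.05, 1.36, 1.38, 1.33 and 1.06 in WT replicates 1 to 5, and mINDY-KO replicate 2 stood above the others of its group. Psmg2 ranged over 2.33 to 2.73 in mINDY-KO mice and 2.24 to 2.48 in WT mice, and Psmg3 over 1.06 to 1.40 in mINDY-KO mice and 0.87 to 1.30 in WT mice. Of the interacting proteins, Psmc3ip, known for its role in meiotic recombination, measured 0.81, 0.78, 0.85, 0.68 and 1.05 in mINDY-KO replicates 1 to 5, against 0.28, 0.53, 0.94, 0.71 and 0.73 in WT replicates 1 to 5, a difference of 0.19 (adjusted p = 0.559 from limma). All 5 mINDY-KO mice lay above the WT mean of Psmc3ip. Psme3ip1, which binds Psme3, measured 2.0, 2.09, 2.05, 2.0 and 2.12 in mINDY-KO replicates 1 to 5, against 2.16, 2.28, 2.40, 2.11 and 2.08 in WT replicates 1 to 5. None of the mINDY-KO mice lay above its WT mean, and its difference of -0.16 (standard error 0.075, adjusted p = 0.471 from limma) was the lowest of the 43 genes. The dimmer probe of Psme3ip1 also differed by -0.16, with an unadjusted p of 0.035 and an adjusted p of 0.419 (limma).

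Genes around the proteasome were mixed in direction. Of 15 detected genes that control, assemble or feed it, 7 had a higher and 8 a lower mean, with a median difference of -0.028 and 0 at an unadjusted p under 0.05 in either direction (limma). The smallest p belonged to Ubqln4, a shuttle factor for ubiquitinated proteins, with a difference of -0.16 (standard error 0.079, adjusted p = 0.491 from limma), to Pomp, a chaperone of core maturation, with 0.24 (standard error 0.12, adjusted p = 0.501 from limma), and to the cap-bound deubiquitinase Uchl5, with 0.24 (standard error 0.13, adjusted p = 0.514 from limma). The transcription factors Nfe2l1 and Nfe2l2 differed by -0.028 and -0.095. Of 11 detected genes of ubiquitin activation and ligation, 6 had a higher mean, with a median difference of 0.010 and 0 at an unadjusted p under 0.05 (limma). Those with the smallest p were the ligase scaffold Cul2 (0.11) and the ubiquitin-conjugating enzymes Ube2n (-0.10) and Ube2k (0.079).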

How the data were processed

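Adrenal RNA of 5 mINDY-KO and 5 WT mice was measured on 11 arrays. The authors deposited the signal intensity and the detection p-value of each probe in the form given by GenomeStudio (2011.1 by the submitters' processing notes) without normalization across arrays, and the Z score of each probe. From the intensities, log10 values were centred on 0 and scaled to unit SD on each array, then multiplied by 1.57, the mean SD of the log2 signals. Probes with a detection p under 0.05 in at least 5 of 10 mice were kept (13341 of 25697), and the brightest kept probe stood for a gene. Platform symbols were used for names. Genotypes were compared with limma 3.58.1 in R 4.3.3 (functions lmFit and eBayes, two-sided tests), and p-values were adjusted over all kept probes by the Benjamini-Hochberg method. The fit was tested on simulated data. The genes described, the related lists and the alternatives were chosen with earlier results of these data known. Genes given with a value in each mouse or with ranges are those of the immunoproteasome and activators and up to 4 per other role by the smallest p, and other values were picked after they were seen. Alternatives were other normalizations, the deposited Z scores, other detection filters, either array of WT replicate 1, a replicate block, array weights, an intensity trend, probe averages and leaving out mice. Figures were drawn with matplotlib 3.10.9. No column of a sample was left unused.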

Additional observations from a re-analysis of the deposited data

Results flagged for a closer look

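In 3 of 64 groups of 5 mice 1 mouse stood apart from the rest by Dixon's criterion (a gap over 0.71 of the range of the group), where chance alone gives about 1 in 20 groups. For Psmb5, WT replicate 3 was the lowest WT mouse at 2.45, with the next at 2.65, a gap of 0.724 of the range. For Psmg3, mINDY-KO replicate 3 was the highest mINDY-KO mouse at 1.40, with the next at 1.14, a gap of 0.757. For Psmg1, mINDY-KO replicate 2 was the highest at 1.5, with the next at 1.25, a gap of 0.853; without this mouse the difference of Psmg1 was -0.014.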

How the results depend on the processing

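The adjusted threshold was passed by 0 of the 43 genes under every alternative run (limma). The count of higher genes at an unadjusted p under 0.05 was 3 with median centring, beside 1.95% of all genes. When single mice were left out it was lowest, 3, without mINDY-KO replicate 4, beside 4.87% of all genes. It was highest, 8, without mINDY-KO replicate 1, beside 4.42% of all genes. Psmb7 and Psmd10 kept their direction under every alternative, and the adjusted p of Psmb7 ranged from 0.0980 to 0.644 (limma). The labels do not say that the replicate numbers pair the mice. The deviations of mice of one number correlated negatively (-0.30 to -0.11, with no mouse closest to its own number). Such values cannot say whether the mice were paired by design. With the replicate number as a block, 5 genes were higher at an unadjusted p under 0.05 (limma), beside 3.57% of all genes. The adjusted threshold was then passed by 0 genes of the 43. Of the 43 genes, 18 changed sign under at least 1 alternative. Without mINDY-KO replicates 3 and 4 these were Psmb2 (-0.010), Psmb3 (-0.021), Psmb6 (-0.067), Psmb10 (-0.038), Psmc2 (-0.038), Psmc4 (-0.024), Psmd13 (-0.020), Psmd2 (0.016) and Psmg2 (-0.00068). Under settings chosen after seeing the data, they were Psmb6 (-0.025), Psmb10 (-0.032), Psmd13 (-0.013), Psmd2 (0.018), Psmd9 (-0.0029) and Psmg2 (-0.010) with quantile normalization and without these mice, and Psmb6 (-0.018) and Psmc4 (-0.013) with quantile normalization and array quality weights. Psmc2 was -0.0021 with quantile normalization and -0.0020 with neqc, Psmd11 -0.020 and Psmd7 -0.031 with the average of all probes, and Psmd2 0.0086 with the first array of WT replicate 1 alone. With single mice left out, the sign changed for 9 genes, which ranged over -0.039 to 0.13 (Psmb8), -0.062 to 0.0086 (Psmc6), -0.090 to 0.011 (Psmd1), -0.039 to 0.16 (Psmd11), -0.012 to 0.093 (Psmd13), -0.075 to 0.020 (Psmd2), -0.066 to 0.20 (Psmd5), -0.093 to 0.028 (Psme1) and -0.014 to 0.079 (Psmg1). The cause was not tested for any of these. The number of mice and arrays limits the precision, and slides were not given in the sources used here.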
